A study of Mus musculus with 5 samples.

Results

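The 8 mouse genes that encode the constant regions of the immunoglobulin heavy chains are Ighm, Ighd, Ighg3, Ighg1, Ighg2b, Ighg2c, Ighe and Igha. They were selected by gene symbol, and all 8 were found among the 54113 named entries of a table of RNA-seq counts. RNA came from tissue labelled as colorectal cancer (CRC) tumour of C57BL/6 mice exposed for 2 weeks to 30 °C, which is thermoneutral for a mouse (3 tumours), or to 4 °C, a cold exposure (2 tumours). By the study's methods, CRC tumours were grown from MC-38 cells, a mouse colon carcinoma line, implanted into immunocompetent wild-type hosts that keep their own B cells. No sample carries a genetic change or a drug by its labels, and the age and sex of each mouse are not given there. The labels do not state that each tumour came from a separate mouse, so p-values measure the spread between these samples. The comparison asks whether the level or the mixture of heavy-chain constant RNA differed with the temperature.

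An antibody heavy chain is made by joining a variable exon, assembled once in each B cell, to the exons of a constant gene. Naive B cells use Ighm and Ighd together through alternative processing of 1 long transcript, giving IgM and IgD on the cell surface. After activation a deletion in the DNA can bring a downstream constant gene next to the variable exon. This is class switching, and it replaces IgM by IgG, IgE or IgA while the antigen specificity stays the same. Each constant gene ends in alternative exons for a secreted or a membrane form. Plasma cells make the secreted form in very large amounts. Unswitched B cells can also transcribe a constant gene without a variable exon before they switch. Counts per gene cannot separate these kinds of transcript, and in bulk tissue fewer cells of a type and less RNA per cell cannot be told apart.

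All 8 genes lie on the minus strand of chromosome 12 (GENCODE annotation M21, GRCm38), and each is annotated with 2 transcripts, 1 secreted and 1 membrane. Ighm comes first in the direction of transcription, from 113418558 to 113422730, and Ighd follows from 113406604 to 113416324. The gamma genes, for the IgG subclasses, are Ighg3 (113356224 to 113361232), Ighg1 (113325240 to 113330523), Ighg2b (113302965 to 113307933) and Ighg2c (113285325 to 113288932). Ighg2c is the gene that C57BL/6 mice carry in place of Ighg2a. Ighe (113269260 to 113273248), for IgE, and Igha (113254830 to 113260236), for IgA, stand last, and Igha starts 162494 bases after the start of Ighm.

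The gamma genes resemble each other, which bears on how far their counts can be kept apart. They differ most visibly in the hinge, the short flexible stretch between the antigen-binding arms and the stem, whose cysteines join the heavy chains. The hinge exons of the GENCODE transcripts are shown 5′ to 3′ on the gene's strand, with complete in-frame cysteine codons in capitals.
Ighg3 hinge, chr12:113360529-113360576: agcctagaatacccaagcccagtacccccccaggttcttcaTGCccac
Ighg1 hinge, chr12:113329844-113329882: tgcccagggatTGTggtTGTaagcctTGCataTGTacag
Ighg2b hinge, chr12:113307261-113307326: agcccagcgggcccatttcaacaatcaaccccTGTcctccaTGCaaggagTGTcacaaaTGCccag
Ighg2c hinge, chr12:113288263-113288325: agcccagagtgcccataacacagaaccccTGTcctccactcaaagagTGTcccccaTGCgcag
The Ighg3 exon has 48 bases and 1 cysteine codon, the Ighg1 exon 39 bases and 4, the Ighg2b exon 66 bases and 4, and the Ighg2c exon 63 bases and 3. Over the secreted coding sequence, Ighg2b and Ighg2c were identical at 86.3% of 1002 aligned bases. The other 5 gamma pairs lay between 76.1% and 78.5%. The longest run without a mismatch between Ighg2b and Ighg2c is a stretch of 78 bases in exon 3 of both genes, chr12:113306869-113306946 and chr12:113287869-113287946, and it marks where a short read could be counted for either gene.
Shared by Ighg2b and Ighg2c: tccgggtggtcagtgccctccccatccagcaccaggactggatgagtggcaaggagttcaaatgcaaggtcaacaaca
Of all windows of 50 bases in its transcripts, Ighg2c shared 5.49% with another gene's transcript, Ighg2b 4.15%, Ighg3 1.58% and Ighg1 0.393%, always with another gamma gene. Ighm, Ighd, Ighe and Igha shared 0% of such windows, and at 100 bases the share was 0% for all 8 genes. How reads that fit several genes were counted is not given in the sources used here.

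The libraries held 16191708 to 20320525 counts on named genes, so that a count of 3, used as the floor, equals 0.148 to 0.185 CPM, the counts scaled to a library of 1000000. The content of the libraries went partly against the label. The 10 epithelial markers, Epcam and keratins among them, summed to only 22.3 to 240 CPM, with Krt19 and Cldn4 at 0 in some libraries, while the 10 B cell markers summed to 1407 to 4199 and the 9 erythroblast markers found to 13933 to 42006. The 8 markers of splenic stroma summed to 627 to 919 CPM, with Ccl21a at 0 in some libraries, and 24 pancreatic acinar genes summed to 369925 in 30 °C replicate 2, 2626 in 4 °C replicate 2 and 21.8 to 79.4 elsewhere. All these sums and the levels that follow are CPM scaled by trimmed mean of M-values (TMM). This gave 30 °C replicate 2 a factor of 0.738 and the other libraries 1.03 to 1.13. Scaled to the library total alone, the acinar sum of 30 °C replicate 2 was 272394 CPM. The part of these cell types in the results below was not tested.

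The summed RNA of the 8 genes was similar in all libraries, while its mixture was not. The sum was 14048, 12168 and 11464 TMM-scaled CPM in replicates 1, 2 and 3 at 30 °C, and 13606 and 12995 in replicates 1 and 2 at 4 °C. The highest of these libraries stood 1.22 times above the lowest, and the groups overlapped. The genes took 1.51%, 0.896% and 1.29% of named counts at 30 °C and 1.47% and 1.34% at 4 °C, where the low second value belongs to the library rich in acinar transcripts.

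**Figure D1:**
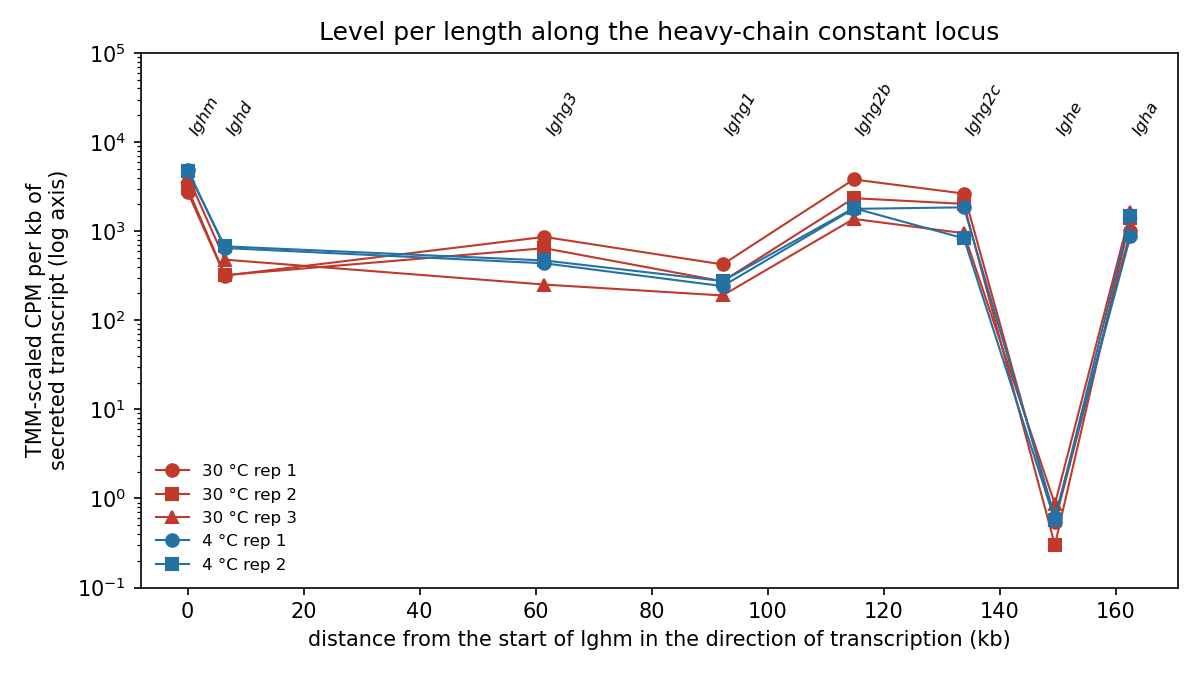
Level of each heavy-chain constant gene in TMM-scaled CPM per kb of its secreted transcript (log axis) against its distance in kb from the start of Ighm, with 1 line for each of the 5 libraries (red 30 °C, blue 4 °C). Ighe lies at 0.300 to 0.862 in all libraries, while the other 7 genes lie at 190 or above.

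To compare levels between the members, CPM were divided by the length of the secreted transcript. On this scale the level of Ighm was at 2764 to 4922 TMM-scaled CPM per kb, the highest of the 8 in 4 of 5 libraries. The exception was 30 °C replicate 1, where Ighg2b reached 3808 against 2764 for Ighm. Per kb of all annotated exons, Ighg2c took that place in the same library, with 2215 against 2188 for Ighm, a difference that rests on the annotated length of Ighg2c of 1326 bases beside 2512 to 2678 for the other gamma genes. Ighg2b, Ighg2c and Igha held the other 3 of the first 4 places in every library, in an order that changed between libraries. Ighg3, Ighd and Ighg1 held places 5 to 7, with Ighd ahead of Ighg3 in 30 °C replicate 3 and in both libraries at 4 °C, and behind it in 30 °C replicates 1 and 2. Ighe was last everywhere, at 0.300 to 0.862 per kb. The ranges over the 5 libraries of Ighg2b, Ighg2c and Igha overlap, as do those of Ighg3, Ighd and Ighg1. Compared within each library, Ighg3 stood above Ighg1 in all 5, at 252 to 863 against 190 to 423 per kb. Every other order within these trios changed between libraries.

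Ighm, the gene of the IgM heavy chain, was higher in both libraries at 4 °C than in any at 30 °C. It had 4126, 4518 and 6227 TMM-scaled CPM at 30 °C and 7348 and 7085 at 4 °C. Its mean was 4957 ± 1117 (SD, n = 3) against 7217 ± 186 (SD, n = 2) in the cold. The log2 fold change, 4 °C minus 30 °C throughout, was 0.54 with a standard error (SE) of 0.20 (adjusted p = 0.71 by the quasi-likelihood test of edgeR with Benjamini-Hochberg adjustment over 16133 genes). Within the 30 °C group, replicate 3 stood closer to the cold samples than to its own group's lowest value. Ighd, the gene of the IgD heavy chain that naive B cells show beside IgM, had 254, 258 and 384 TMM-scaled CPM at 30 °C and 519 and 542 at 4 °C. Its mean was 299 ± 74.2 (SD, n = 3) against 531 ± 16.4 (SD, n = 2) in the cold, or 0.83 on the log2 scale (SE 0.23, adjusted p = 0.69). Here too the groups did not overlap, and replicate 3 was the highest of the 30 °C group.

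Of the 8 genes, 0 passed an adjusted p of 0.05, as did 0.0% of all 16133 genes tested. Before adjustment, 2 genes were under 0.05 in the edgeR test and both were higher at 4 °C, where 6.76% of all genes were under 0.05 and 2.58% were so and higher. These were Ighm (unadjusted p = 0.0325, adjusted p = 0.71 by edgeR) and Ighd (unadjusted p = 0.0111, adjusted p = 0.69). Ighm and Ighd were also the 2 genes whose groups did not overlap, all values at 4 °C being above all at 30 °C, which held for 12.2% of all genes tested. The opposite order held for 0 of the 8 and for 11.0% of all genes, and either order for 2 of the 8 and 23.3% of all genes. Without 30 °C replicate 3, the log2 fold change was 0.74 for Ighm and 1.05 for Ighd (unadjusted p = 0.0053 and 0.0014, adjusted p = 0.36 for both). Without the library rich in acinar transcripts, 30 °C replicate 2, edgeR gave 0.47 for Ighm (unadjusted p = 0.12) and 0.72 for Ighd (unadjusted p = 0.036), both with adjusted p = 1.00. In the same edgeR test Ighm was also no longer under 0.05 before adjustment when 30 °C replicate 1 (unadjusted p = 0.091, adjusted p = 0.80), 4 °C replicate 1 (0.11 and 0.64) or 4 °C replicate 2 (0.084 and 0.99) was left out. The Wald test of DESeq2, which called 0.891% of its 12460 genes, gave adjusted p = 0.47 for Ighm and 0.11 for Ighd. With library totals in place of TMM, which moved the median of all genes to 0.11 on the log2 scale, the values were 0.63 for Ighm and 0.91 for Ighd. Before adjustment Ighm was not under 0.05 in this fit (edgeR, unadjusted p = 0.062, adjusted p = 1.00), without a filter on low counts (0.082 and 0.87) or without robust estimation (0.095 and 0.78).

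**Figure D2:**
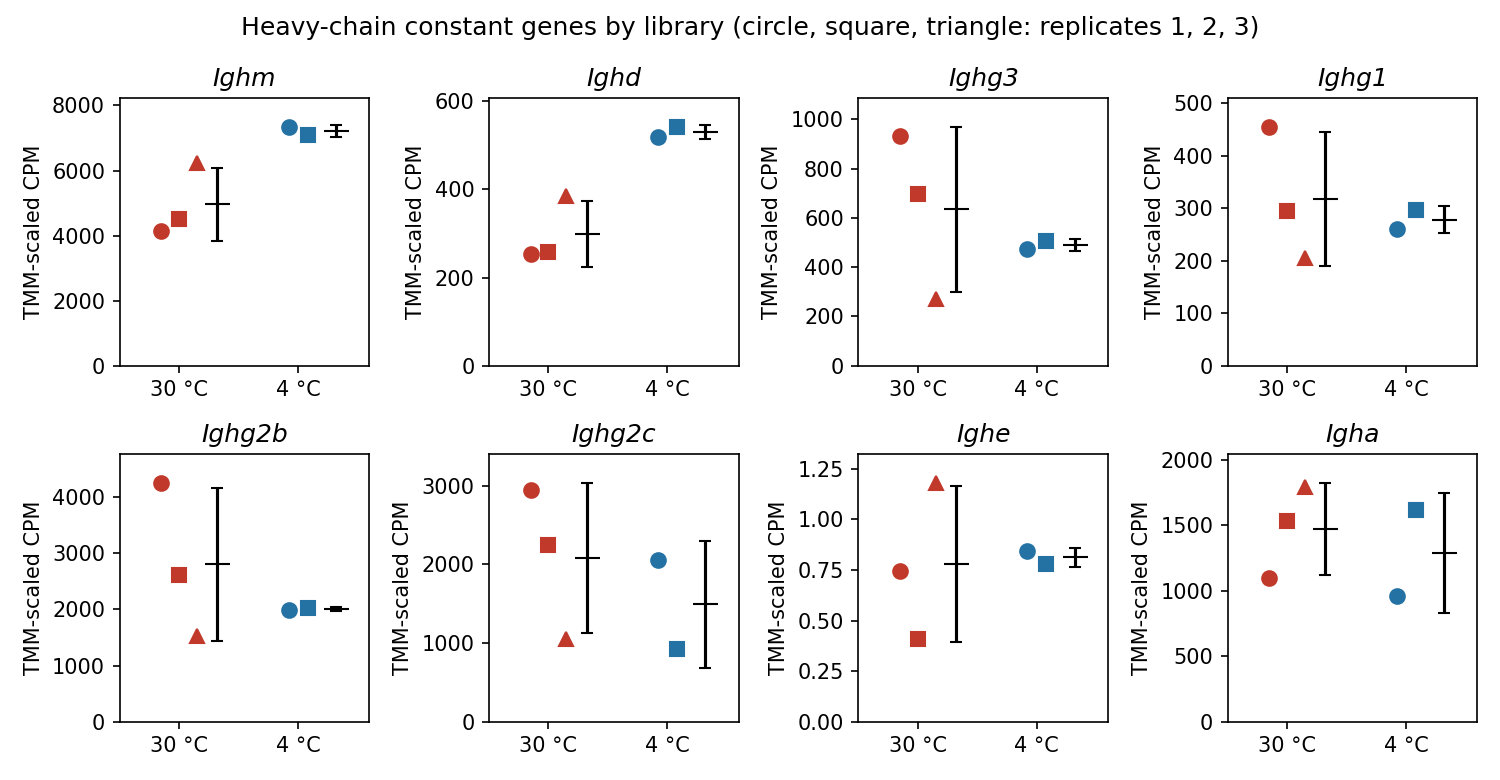
TMM-scaled CPM (linear axes from 0) of the 8 genes in each library, red for 30 °C and blue for 4 °C, with the group mean ± SD (n = 3 and n = 2) beside the points. For Ighm and Ighd both points at 4 °C lie above all 3 at 30 °C, while the other 6 genes overlap.

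Ighd followed Ighm between libraries, but not at a fixed ratio. For every 100 Ighm counts there were 6.16, 5.71 and 6.17 Ighd counts at 30 °C and 7.06 and 7.65 at 4 °C. The ratio was higher in both cold samples than in the others, with means of 6.01 ± 0.27 (SD, n = 3) and 7.36 ± 0.42 (SD, n = 2). As each ratio is formed within 1 library, it does not depend on the scaling. Among 6 genes that process these transcripts, 0 were under an unadjusted p of 0.05, with 2 higher and 4 lower at 4 °C. Zfp318, the factor that lets transcription run past Ighm into Ighd, had 28.2, 35.6 and 51.3 TMM-scaled CPM at 30 °C and 62.8 and 35.6 at 4 °C, so the groups overlapped. Hnrnpll, a splicing factor of activated lymphocytes, stood at 71.6, 58.4 and 50.7 at 30 °C and at 43.3 and 49.4 at 4 °C, all below the first group (log2 fold change −0.38, SE 0.21, adjusted p = 0.79). Ell2, an elongation factor that favours the secreted end of the heavy-chain transcript, had a log2 fold change of −0.40 (SE 0.28, adjusted p = 0.83).

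The gamma genes varied 2.23 to 3.43 times between the lowest and the highest library, and none of the 4 separated the temperatures. Ighg2b had 4242, 2614 and 1531 TMM-scaled CPM at 30 °C and 1984 and 2024 at 4 °C. The values at 30 °C therefore lay on both sides of the cold ones, and the log2 fold change was −0.48 (SE 0.40, adjusted p = 0.86). Ighg2c had 2937, 2250 and 1054 at 30 °C and 2059 and 924 at 4 °C, with a log2 fold change of −0.48 (SE 0.51, adjusted p = 0.88). It was the gamma gene in which the 2 cold samples differed most from each other. Ighg3, a subclass made largely against polysaccharides, had 934, 697 and 272 TMM-scaled CPM at 30 °C and 472 and 508 at 4 °C (log2 fold change −0.37, SE 0.48, adjusted p = 0.90). Ighg1, the subclass typical of responses driven by interleukin-4, had 456, 294 and 204 at 30 °C and 260 and 297 at 4 °C (log2 fold change −0.19, SE 0.34, adjusted p = 0.93). In each of the 4 genes 30 °C replicate 1 was the highest of all libraries. In 3 of them 30 °C replicate 3 was the lowest, the exception being Ighg2c, where 4 °C replicate 2 lay below it. Without 30 °C replicate 1 the log2 fold changes of Ighg1 and Ighg3 turned positive, to 0.16 and 0.01. Without 30 °C replicate 3, Ighg2b (−0.77, unadjusted p = 0.031) and Ighg3 (−0.73, unadjusted p = 0.022) came under 0.05, with adjusted p = 0.47 and 0.43. Ighg2b stood at −0.05 without 30 °C replicate 1. Ighg2c stood at −0.15 without 30 °C replicate 1, −0.80 without 30 °C replicate 3, −1.17 without 4 °C replicate 1 and −0.03 without 4 °C replicate 2, so single libraries decided the size of both differences.

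Summed over the 4 gamma genes, the level was 8569, 5856 and 3062 TMM-scaled CPM at 30 °C and 4774 and 3752 at 4 °C, a range of 2.80 times between libraries. Within the gamma counts the subclasses kept closer proportions. Ighg2b took between 41.6% and 53.9% of gamma counts, both ends of this range being cold samples. Ighg2c took 34.3%, 38.4% and 34.4% at 30 °C and 43.1% and 24.6% at 4 °C, so the 2 cold samples held both the highest and the lowest share. The ratio of Ighg2b to Ighg2c counts was 1.44, 1.16 and 1.45 at 30 °C and 0.964 and 2.19 at 4 °C. Ighg3 took 8.90% to 13.5% and Ighg1 5.03% to 7.91% over the 5 libraries, and for all 4 subclasses the groups overlapped.

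Igha, the gene of the heavy chain of IgA, the main antibody of mucosal surfaces, did not follow the gamma genes. It had 1098, 1535 and 1789 TMM-scaled CPM at 30 °C and 963 and 1615 at 4 °C (log2 fold change −0.19, SE 0.31, adjusted p = 0.92). The groups overlapped, and replicate 1 was the lowest sample at either temperature. Without 4 °C replicate 1 the log2 fold change was 0.13, and without 4 °C replicate 2 it was −0.63. There were 12.8, 26.2 and 58.4 Igha counts for every 100 gamma counts at 30 °C and 20.2 and 43.0 at 4 °C, a range of 4.56 times that the temperatures share. Ighe, the gene of the IgE heavy chain of allergic responses, was barely detected. Its raw counts were 14, 5 and 27 at 30 °C and 17 and 13 at 4 °C, all above the floor of 3, or 0.411 to 1.18 TMM-scaled CPM. The log2 fold change was 0.03 (SE 0.55, adjusted p = 0.99), and a difference of the size seen for Ighd would lie within 2 SE of 0 at this depth.

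**Figure D3:**
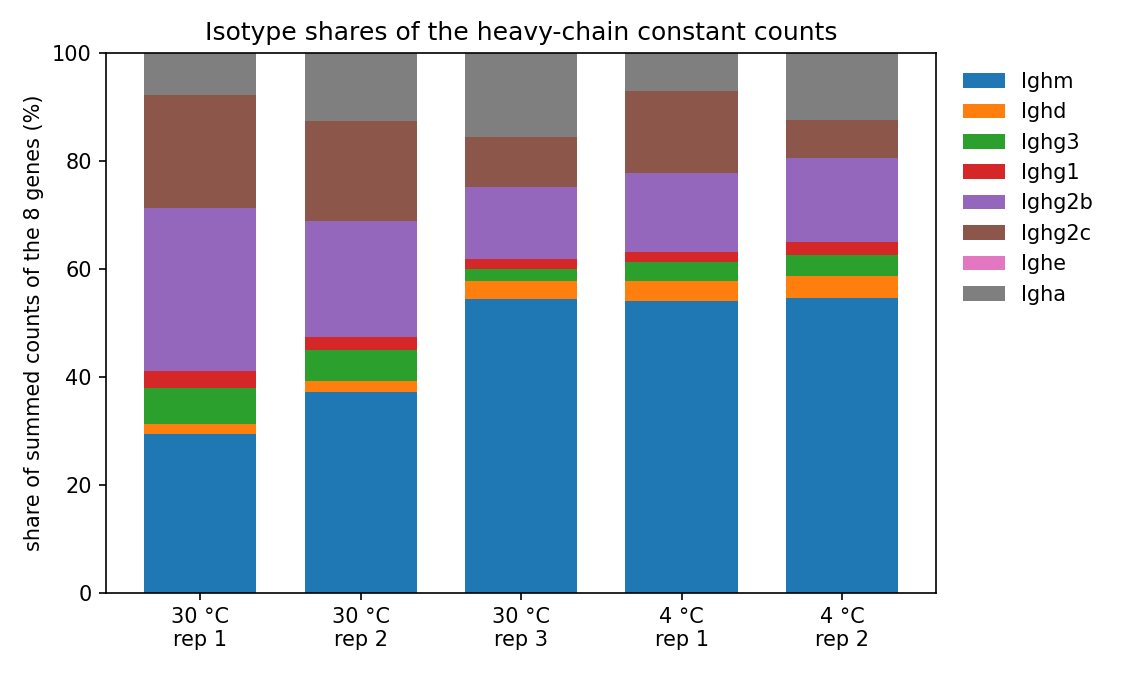
Share (%) of each gene in the summed counts of the 8 genes, stacked to 100% for each library. Ighm takes 29.4% and 37.1% in 30 °C replicates 1 and 2 and 54.0% to 54.5% in the other 3 libraries, and Ighe is too small to be seen.

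The share of each gene in the summed counts does not depend on library scaling. Ighm took 29.4%, 37.1% and 54.3% at 30 °C and 54.0% and 54.5% at 4 °C. Its 95% Wilson intervals reached at most from 36.9% to 37.4%, and they cover counting error only. On this measure the groups overlapped, since 30 °C replicate 3 lay between the cold samples, and the difference of 14.0 percentage points had p = 0.4 by an exact two-sided permutation test, run on each of the 8 shares. The difference was 8.54 points without 30 °C replicate 1 and 21.01 without 30 °C replicate 3. With 3 tumours against 2 there are 10 splits and the smallest possible p is 0.2. Ighd reached that value, with 1.81%, 2.12% and 3.35% at 30 °C and 3.82% and 4.17% at 4 °C. Ighg2b took 30.2%, 21.5% and 13.4% at 30 °C and 14.6% and 15.6% at 4 °C (exact permutation p = 0.6). Igha took 7.81%, 12.6% and 15.6% at 30 °C and 7.08% and 12.4% at 4 °C (exact permutation p = 0.4). For Ighe the share was 0.0034% to 0.0103% (exact permutation p = 1).

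The switched share, taken as the 4 gamma genes, Igha and Ighe over all 8, summarises this mixture without a test. It was 68.8%, 60.8% and 42.3% at 30 °C and 42.2% and 41.3% at 4 °C. The mean was 57.3% ± 13.6 (SD, n = 3) against 41.7% ± 0.62 (SD, n = 2), a difference of −15.6 percentage points that is close to the spread at 30 °C. Both cold samples lay below all 3 others, but the Wilson interval of 30 °C replicate 3, 42.1% to 42.5%, overlapped that of 4 °C replicate 1, 42.0% to 42.4%. Leaving out 30 °C replicate 1 made the difference −9.80 points, and leaving out 30 °C replicate 3 made it −23.0. Counts per kb of secreted transcript gave −15.3 points and leaving out Igha −15.6, both chosen after seeing the data.

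**Figure D4:**
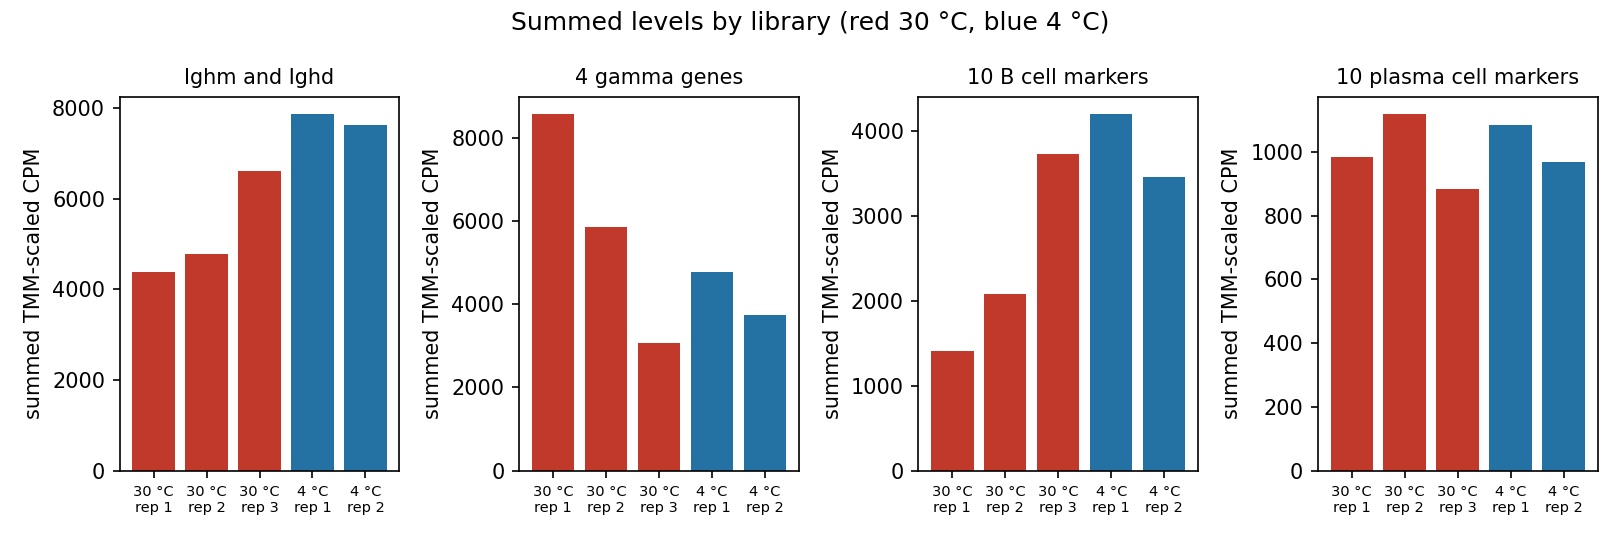
Summed TMM-scaled CPM of Ighm and Ighd, of the 4 gamma genes, of 10 B cell markers and of 10 plasma cell markers, as bars from 0 for each library (red 30 °C, blue 4 °C). Ighm with Ighd and the B cell markers are lowest in 30 °C replicates 1 and 2, the gamma genes are highest there, and the plasma cell markers stay between 883 and 1118.

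B cell markers were highest in the libraries with the most Ighm and Ighd. The 10 markers, Ms4a1 and Cd79a among them, summed to 1407, 2076 and 3736 TMM-scaled CPM at 30 °C and to 4199 and 3463 at 4 °C, with 30 °C replicate 3 again beside the cold samples. All 10 were tested and 10 were higher at 4 °C, against 50.7% of all genes tested. Their median log2 fold change was 0.68 (0.01 over all genes), 2 were under an unadjusted p of 0.05 and 0 were called. Measured against these markers, Ighm and Ighd no longer separated the groups. There were 2.93, 2.18 and 1.67 Ighm counts for each B cell marker count at 30 °C and 1.75 and 2.05 at 4 °C. For Ighd the ratio was 0.181, 0.124 and 0.103 at 30 °C and 0.124 and 0.157 at 4 °C. Gamma counts per B cell marker count ran from 6.09 and 2.82 in 30 °C replicates 1 and 2 to 0.820 in replicate 3, with 1.14 and 1.08 at 4 °C. Igha counts per B cell marker count were 0.780, 0.740 and 0.479 at 30 °C and 0.229 and 0.466 at 4 °C, the only 1 of these 4 ratios in which both cold samples lay below the rest.

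The plasma cell markers, taken as a sum, did not follow the gamma genes from library to library. They summed to 983, 1118 and 883 TMM-scaled CPM at 30 °C and 1084 and 968 at 4 °C. Of the 10 tested, 6 were higher and 4 lower at 4 °C, with a median log2 fold change of 0.11, 1 under an unadjusted p of 0.05 and 0 called. That 1 was Mzb1, an endoplasmic reticulum protein of B and plasma cells that helps IgM to assemble (log2 fold change 0.56, SE 0.16, adjusted p = 0.69). It was the highest of the 10 log2 fold changes, which began at −1.77. Sdc1, Prdm1, Xbp1 and Derl3 had −0.06, 0.23, −0.27 and −0.97. Xbp1 had 317, 346 and 177 TMM-scaled CPM at 30 °C and 239 and 225 at 4 °C. As for the gamma sum, 30 °C replicates 1 and 2 were its highest libraries and replicate 3 its lowest. The marker sum, Xbp1 and Derl3 were highest in 30 °C replicate 2, the library rich in acinar transcripts, while Sdc1, Prdm1 and Mzb1 were not. Derl3 had 61.8 TMM-scaled CPM there and 15.6 to 23.3 elsewhere. The part of acinar RNA in these markers was not tested. Gamma counts per plasma cell marker count were 8.71, 5.24 and 3.47 at 30 °C and 4.40 and 3.87 at 4 °C. T cell and splenic markers also stood with Ighm and Ighd. All 10 T cell markers were higher at 4 °C, 7 of them under an unadjusted p of 0.05. Their summed levels were 305 to 491 at 30 °C and 663 and 681 at 4 °C. Of the 8 splenic markers 7 were higher and 4 were under 0.05, from 627 to 808 at 30 °C to 879 and 919 at 4 °C. Of all genes tested, 50.7% were higher at 4 °C, and 2.58% were so with an unadjusted p under 0.05 by edgeR. No B cell, plasma cell or T cell marker was at 0 in any library. The part of these cells in the higher Ighm and Ighd was not tested.

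**Figure D5:**
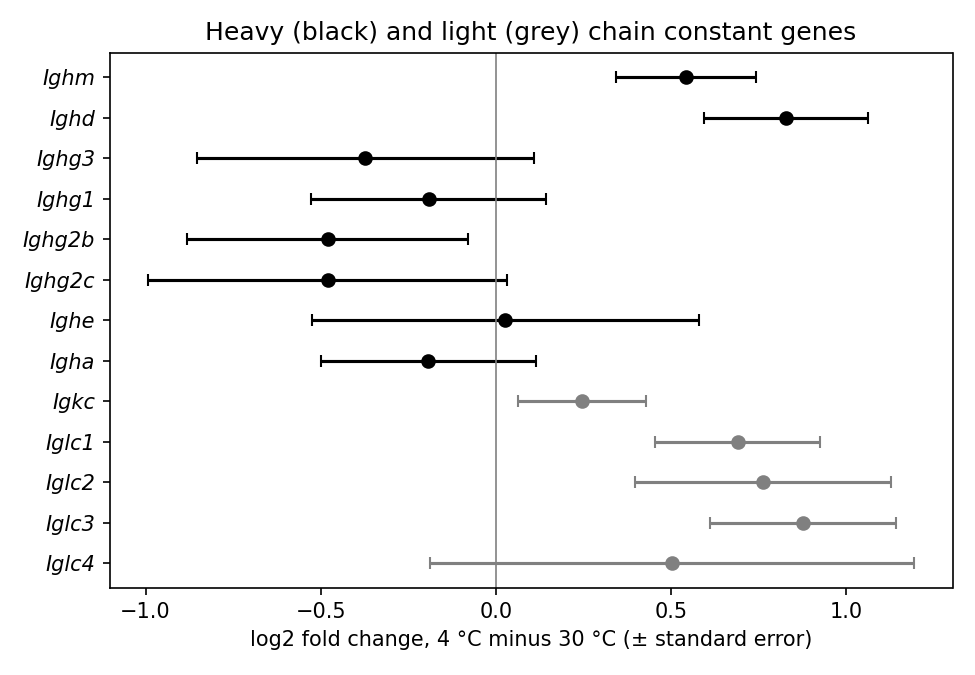
Log2 fold change, 4 °C minus 30 °C, with its standard error from the edgeR fit for the 8 heavy-chain (black) and 5 light-chain (grey) constant genes. Ighm, Ighd and all 5 light-chain genes lie above 0, and the gamma genes and Igha lie below it.

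Each heavy chain pairs with a kappa or lambda light chain. The 5 constant genes of the light chains were all higher at 4 °C, against 50.7% of all genes tested. Of the 5, 2 were under an unadjusted p of 0.05 and 0 were called. Igkc, the kappa constant gene, had 7340, 6374 and 5122 TMM-scaled CPM at 30 °C and 6908 and 7987 at 4 °C (log2 fold change 0.25, SE 0.18, adjusted p = 0.84). The lambda genes Iglc1, Iglc2 and Iglc3 had log2 fold changes of 0.69, 0.76 and 0.88 (adjusted p = 0.70, 0.76 and 0.69 by edgeR). In all 3 both values at 4 °C lay above all at 30 °C, as held for 12.2% of all genes tested. Sequence shared between the lambda genes was not examined. Iglc4 stood at 0.246 to 0.839 TMM-scaled CPM, with 3 to 19 counts. Lambda took 5.16%, 8.03% and 12.1% of light-chain constant counts at 30 °C and 10.2% and 12.1% at 4 °C, in the same order of libraries at 30 °C as the Ighm share. Heavy-chain constant counts stood at 1.82, 1.76 and 1.97 times the light-chain ones at 30 °C and at 1.77 and 1.43 times at 4 °C. Reads of the variable part were counted on separate genes. The 185 Ighv segments summed to 3387 to 3619 TMM-scaled CPM in 4 libraries and to 1651 in 4 °C replicate 2, where constant counts were 7.87 times the Ighv counts against 3.38 to 4.14 elsewhere. The kappa variable segments summed to 4819 to 6037 in the same 4 libraries and to 4242 in 4 °C replicate 2.

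The enzymes and repair factors that carry out class switching were split between the directions. Of the 21 listed machinery genes 20 were tested, 8 higher and 12 lower at 4 °C, with a median log2 fold change of −0.02, 1 under an unadjusted p of 0.05 and 0 called. Exo1, an exonuclease of mismatch repair, was the 1 gene under 0.05, at 20.9, 20.9 and 18.8 at 30 °C and 13.6 and 13.8 at 4 °C (log2 fold change −0.56, SE 0.19, adjusted p = 0.69). Ung, which removes uracil from DNA, and Pms2 of mismatch repair had log2 fold changes of −0.26 and −0.45 (adjusted p = 0.84 and 0.78).

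Among 22 cytokines, receptors and factors that steer the choice of isotype, 19 were tested. Of these, 17 were higher at 4 °C, against 50.7% of all genes tested. Of the 19, 0 were under an unadjusted p of 0.05, and the median log2 fold change was 0.24. Il4, which directs switching to IgG1 and IgE, stood at 0.655 to 1.28 TMM-scaled CPM, and Ifng, which directs it to IgG2c, at 0.905 to 1.26, with 12 to 24 and 13 to 22 counts. Tgfb1, a signal for switching to IgA, had 258, 206 and 248 at 30 °C and 259 and 293 at 4 °C (log2 fold change 0.22, SE 0.17, adjusted p = 0.86). Cd40, the receptor through which T cells help B cells, had 17.5, 25.1 and 37.7 at 30 °C and 43.2 and 47.9 at 4 °C (log2 fold change 0.77, SE 0.32, adjusted p = 0.74). Tnfsf13b, the B cell survival factor BAFF, had a log2 fold change of 0.49 (SE 0.26, adjusted p = 0.78).

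Of the 12 genes for receptors and carriers of antibodies, 6 were higher and 6 lower at 4 °C, 1 was under an unadjusted p of 0.05 and 0 were called. That 1 was Fcmr, the receptor for the stem of IgM, with 113, 143 and 244 TMM-scaled CPM at 30 °C and 303 and 344 at 4 °C (log2 fold change 0.96, SE 0.33, adjusted p = 0.70). Its libraries stood in the same order at 30 °C as those of Ighm. Jchain, the peptide that joins IgM and IgA into polymers, had 863, 1249 and 1320 at 30 °C and 1608 and 1327 at 4 °C (log2 fold change 0.36, SE 0.24, adjusted p = 0.83). Fcer2a, the low-affinity IgE receptor CD23 of B cells, had 39.4, 66.3 and 130 at 30 °C and 140 and 127 at 4 °C (log2 fold change 0.77, SE 0.46, adjusted p = 0.81). Fcgrt, the neonatal receptor that keeps IgG in circulation, and Pigr, which carries IgA across epithelium, had log2 fold changes of 0.43 and −0.64 (adjusted p = 0.82 and 0.92), Pigr from 7 to 44 counts.

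The genes whose pattern over the 5 libraries was most like that of each member were found by the root mean square difference of centred log2 CPM among 16125 other genes. For Ighm they were A430093F15Rik (0.044) and Fam189b (0.046), and for Ighd Gm10263 (0.047) and Thy1 (0.050), a surface protein of T cells. Ighg2b was followed most closely by Ckap4 (0.041), a protein of the endoplasmic reticulum, with 155, 94.0 and 56.1 TMM-scaled CPM at 30 °C and 68.0 and 75.4 at 4 °C, and then by Ppp1r15a (0.11). For Ighg2c they were the kappa variable segment Igkv17-127 and Airn, for Ighg3 Sh2d5 and the histone gene Hist1h1e, and for Ighg1 Gm15853 and A930006K02Rik. For Igha they were 0610040B10Rik (0.030) and Gm49774, and for Ighe Gm14121 and Nuak2. Within the family, Ighm and Ighd were nearest to each other (0.15), as were Ighg1 and Ighg2b (0.17), while Ighg3 and Ighg2c were nearest to Ighg2b (0.20 and 0.40) and Igha and Ighe to Ighm (0.47 and 0.37). Some of the matches had very low levels. 0610040B10Rik lay at 0.497 to 1.00 TMM-scaled CPM, Gm49774 at 0.479 to 0.830 and Airn at 0.180 to 0.798. With 5 libraries and this many genes, near matches arise easily, and these distances are a description.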

How the data were processed

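RNA from 5 tumours was sequenced from libraries made with a TruSeq kit. The deposited table gives raw counts per gene. By the paper's methods the authors counted reads with featureCounts on the Gencode vM19 annotation, whereas the submitters' processing notes name fastp, HISAT, RSEM and GRCm38. The values are whole numbers and were used as counts. Strand setting and reads that fit several genes are not given in the sources used here, so the gamma genes, which share sequence, are uncertain to that extent. Unnamed entries (333, with 0.0101% to 0.0170% of counts) were left out, and of 97 symbols held by several entries the most abundant entry kept the symbol. No column was left unused, and no batch is given.

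Genes were filtered with filterByExpr and scaled by TMM in edgeR 4.0.16 (R 4.3.3), and 4 °C was compared with 30 °C by the robust quasi-likelihood test without covariates. A call needed a Benjamini-Hochberg adjusted p under 0.05 over 16133 genes. Levels are TMM-scaled counts per 1000000. Log2 CPM for the likeness of patterns had a prior count of 2. Shares were compared by exact permutation in scipy 1.17.1. Lengths, positions and sequences come from GENCODE M21 (GRCm38), compared with biopython 1.88. Alternatives were DESeq2 1.42.0, other scalings and filters, a replicate block, estimation that is not robust, genes left out and each tumour left out. The test was tested on simulated counts. The members and lists were chosen with earlier results of these data known. Named genes are all members and light-chain constant genes, the first 3 genes of each other list and the 2 with its smallest p, and the 2 genes nearest to each member; a part of the genes so named is not reported here.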

Additional observations from a re-analysis of the deposited data

How the results depend on the processing

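The number of heavy-chain constant genes called stayed at 0 under all 15 alternatives of the fit, while over all genes 0 calls became 111 with DESeq2, 8 with library totals and 44 with the replicate number as a block, and stayed 0 under the other 12. The cause was not tested. At least 10 counts in every tumour removed Ighe from the test. The labels share replicate numbers between the temperatures but do not say that they pair the samples. The main fit therefore did not take the numbers as pairs. Deviations of same-numbered samples from their group means correlated at −0.25 (replicates 1) and 0.26 (replicates 2). With 2 cold samples the deviations of these are mirror images, so the correlations cannot decide whether the samples are paired. With the replicate block, 5 of the 8 genes were under an unadjusted p of 0.05 by edgeR, as were 977 of all 16133, with 0 of the 8 called. Replicate number 3 exists only at 30 °C, so its block term takes up that sample. A further term for replicate 2 makes the fit compare same-numbered samples, as if they were paired. The log2 fold changes were then 0.74 for Ighm and 1.05 for Ighd, as in the fit without 30 °C replicate 3. For Ighg2c the value was −0.90 with the block, against −0.80 in that fit. Upper-quartile scaling gave 558 genes higher and 570 lower at an unadjusted p under 0.05, against 417 and 673.

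Under all 15 alternatives Ighm and Ighd had positive and Ighg2b and Ighg2c negative log2 fold changes, but with each tumour left out in turn Ighg2b ran from −0.77 to −0.05 and Ighg2c from −1.17 to −0.03. Leaving out each tumour in turn moved the log2 fold change from −0.43 to 0.16 for Ighg1 and from −0.73 to 0.014 for Ighg3, positive only without 30 °C replicate 1. That of Igha ran from −0.63 to 0.13, positive only without 4 °C replicate 1, and its share from −4.93 to 0.415 percentage points, likewise. For Ighe it ran from −0.26 to 0.46, with −0.26, −0.03 and −0.02 without 30 °C replicate 2, 30 °C replicate 1 and 4 °C replicate 1, and its share from −0.0017 to 0.0018 points, positive only without 30 °C replicate 3. These fits gave 0.43 to 0.74 for the log2 fold change of Ighm, 0.72 to 1.05 for Ighd, −23.0 to −9.80 points for the switched share and 0.02 to 0.17 for the log2 ratio of the summed genes. A fit without a 4 °C tumour takes the lone sample to vary like the others. Depth limits Ighe, with 5 to 27 counts in a library, while each of the other 7 genes had at least 3139 counts in every library.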
